A study of Mus musculus with 2 samples.

Results

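The genes described here are the cyclins, the cyclin-dependent kinases (CDKs), the E2F factors with their DP and pocket protein partners, and the inhibitors, phosphatases and kinases that act on CDKs, in mouse extraembryonic endoderm stem (XEN) cells. They were taken by gene symbol, which gave 57 of the 26127 rows of the authors' expression table. The choice was made with earlier results of these data known. The cells were the female PS10 line of ICR strain, a stem cell line that stands for the primitive endoderm of the blastocyst. Cells of the control LNA group received a control locked nucleic acid oligonucleotide, and those of the Gata6-AS LNA group one against Gata6-AS, the antisense RNA beside the endoderm factor gene Gata6, both carried in with the same lipid reagent. The sample titles call these reagents siRNA. There was 1 library per group, from 1 cell line, so no difference below has a replicate check and none was tested here. Each compares these libraries rather than the conditions. The only p-values below are those that the authors deposited, from the same libraries. The duration and dose of the transfection are not stated in the labels.

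Progress through the cell cycle is driven by CDKs, protein kinases that need a cyclin partner to be active. D-type cyclins with Cdk4 or Cdk6, and then E-type cyclins with Cdk2, phosphorylate the pocket proteins and so release E2F factors, which switch on genes of DNA replication. A-type and B-type cyclins with Cdk2 and Cdk1 then carry the cell through S phase into mitosis. INK4 proteins block Cdk4 and Cdk6, Cip/Kip proteins such as p27 act on several cyclin-CDK pairs, and Wee1-type kinases and Cdc25 phosphatases set and remove inhibitory phosphates on CDKs.

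Levels are in RPKM, that is, reads divided by the gene's length in kilobases and by the library's total in units of 1000000 reads, which allows genes of different length to be set side by side. The steps between low RPKM values correspond to 1.04e+08 reads in the control LNA library and 1.23e+08 reads in the Gata6-AS LNA library, and 3 reads over a kilobase of transcript are 0.0290 RPKM and 0.0244 RPKM. Each percentage of control below carries the exact (Clopper-Pearson) 95% interval of counting error only, computed from the least number of reads that fits both values. A gene counts as measured where the mean of its 2 values reached 1 RPKM. The labelled cell type had its markers: 8 of 8 XEN and primitive endoderm markers were measured. They summed to 797 RPKM in the control LNA and 553 RPKM in the Gata6-AS LNA library. Of these markers 5 were lower in the Gata6-AS LNA library, among them Gata4 (357 RPKM and 246 RPKM) and Sox7 (145 RPKM and 59.4 RPKM). The other 3 were higher: Foxa2 (35.1 RPKM and 35.9 RPKM), Dab2 (31.0 RPKM and 43.6 RPKM) and Hnf4a (3.41 RPKM and 4.43 RPKM). The targeted RNA, carried in the table as 1010001N08Rik, stood at 10.1 RPKM and 5.83 RPKM, and Gata6, with which it shares 58 bp in the annotation, at 81.9 RPKM and 55.7 RPKM. Of 8 fibroblast feeder markers, 0 were measured and 4 (Thy1, Twist1, Lum and Dcn) were at 0 in both libraries, with sums of 0.0473 RPKM and 0.0627 RPKM. Of 7 pluripotent cell markers 1 was measured, Nanog, with sums of 5.15 RPKM and 5.66 RPKM and with Sox2 and Esrrb at 0 in both libraries. Of 7 trophoblast markers 1 was measured, the homeobox gene Esx1, with sums of 1.63 RPKM and 4.23 RPKM and with Tpbpa at 0 in both. Esx1 itself, at 0.535 RPKM and 2.45 RPKM, reached the limit only through the Gata6-AS LNA library and made up most of the difference of these sums. The part of these shifts in the results below was not tested. In bulk RNA, a smaller share of cells in a cell cycle phase and less RNA per cell in that phase cannot be told apart.

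Promoter sequences were printed for 4 members whose values the results turn on. Ccnb2, a B-type cyclin gene, and Ccnf, the cyclin F gene, were higher in the Gata6-AS LNA library. Cdk1 encodes the mitotic kinase, and Cdkn2a starts at separate promoters for separate proteins. They are RefSeq windows on GRCm38.p6 from 250 bases before to 50 bases after an annotated start, on the strand of the gene, 5′ to 3′. Capitals mark the CHR element of mitotic genes (TTTGAA), the CCAAT box (CCAAT) and an E2F element (TTTCCCGC, TTTCGCGC, TTTGCCGC or TTTGGCGC), each searched on both strands, so that a CCAAT box of the opposite strand reads ATTGG.
Ccnb2, chr9:70421505-70421804, minus strand: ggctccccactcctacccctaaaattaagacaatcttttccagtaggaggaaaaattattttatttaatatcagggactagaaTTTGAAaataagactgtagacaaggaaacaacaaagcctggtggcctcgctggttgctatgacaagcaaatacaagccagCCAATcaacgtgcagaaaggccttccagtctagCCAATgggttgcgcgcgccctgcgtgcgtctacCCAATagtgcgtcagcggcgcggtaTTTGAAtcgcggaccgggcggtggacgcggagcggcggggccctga
Ccnf, chr17:24251360-24251659, minus strand: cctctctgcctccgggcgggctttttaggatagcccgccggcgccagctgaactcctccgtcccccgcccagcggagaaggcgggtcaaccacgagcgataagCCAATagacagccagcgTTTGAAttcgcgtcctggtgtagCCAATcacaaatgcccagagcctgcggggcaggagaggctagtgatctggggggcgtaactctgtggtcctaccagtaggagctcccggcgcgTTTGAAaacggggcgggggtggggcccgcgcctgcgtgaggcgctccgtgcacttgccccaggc
Cdk1, chr10:69352863-69353162, minus strand: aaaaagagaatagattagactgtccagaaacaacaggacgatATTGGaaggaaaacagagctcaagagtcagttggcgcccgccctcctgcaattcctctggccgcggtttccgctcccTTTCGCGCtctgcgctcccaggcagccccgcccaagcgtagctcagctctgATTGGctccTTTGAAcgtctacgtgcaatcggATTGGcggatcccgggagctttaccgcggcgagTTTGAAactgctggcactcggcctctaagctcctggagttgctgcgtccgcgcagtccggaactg
Cdkn2a upstream start, chr4:89294570-89294869, minus strand: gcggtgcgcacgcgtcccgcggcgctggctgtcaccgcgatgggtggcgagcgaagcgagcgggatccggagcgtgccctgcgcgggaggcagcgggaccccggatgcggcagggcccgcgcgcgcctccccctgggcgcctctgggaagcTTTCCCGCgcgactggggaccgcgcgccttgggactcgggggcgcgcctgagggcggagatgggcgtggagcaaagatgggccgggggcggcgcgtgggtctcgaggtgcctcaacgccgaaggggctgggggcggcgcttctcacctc
Cdkn2a downstream start, chr4:89282143-89282442, minus strand: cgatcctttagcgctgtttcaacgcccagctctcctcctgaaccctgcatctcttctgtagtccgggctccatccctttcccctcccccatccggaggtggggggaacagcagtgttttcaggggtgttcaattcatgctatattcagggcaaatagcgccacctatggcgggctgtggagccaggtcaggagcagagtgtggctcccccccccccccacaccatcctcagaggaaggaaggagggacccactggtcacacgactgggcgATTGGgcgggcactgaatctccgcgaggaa
The Ccnb2 window held 3 CCAAT boxes and 2 CHR letters, one of the latter beginning at base 5 counted from the start. The Ccnf window held 2 CCAAT boxes and 2 CHR letters, and the Cdk1 window held 3 CCAAT boxes, 2 CHR letters and 1 E2F element. In the Cdkn2a windows, the upstream one held 1 E2F element and the downstream one 1 CCAAT box. Of the 57 members, 43 had at least 1 window, 51 windows in all. An E2F element was in 10 of these 51 (19.6%) and in 2.26% of all 32851 windows. The windows of Tfdp1 overlap and each held an E2F element, so the same element may be counted more than once. The CHR letters were in 10 of 51 (19.6%), against 17.9% of all windows, and a CCAAT box was in 25 of 51 (49.0%), against 37.4%. A CHR together with 2 or more CCAAT boxes was in 7 of the 51 member windows (13.7%) and in 2.09% of all windows. These 7 members are Ccnb2 (141% of control), Ccnf (134%), Cdk1 (113%), Cdk16 (106%), E2f2 (93.3%, under 1 RPKM in both libraries), Cdkn3 (82.5%) and E2f3 (74.2%), so members that hold both lay on either side of 100%. These are counts of letters, not of occupied sites.

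XEN cells expressed a D-type cyclin set made almost wholly of Ccnd3 and Ccnd2. Ccnd3, which activates Cdk4 and Cdk6 (mm9 chr17:47642000-47736632), had the highest level of all 57 members, at 147 RPKM in the control LNA library and 140 RPKM in the Gata6-AS LNA library. That is above 97.8% of measured genes in the control, and the Gata6-AS LNA level was 94.9% of control (93.5% to 96.3%). Ccnd2 stood at 37.1 RPKM and 35.4 RPKM, 95.5% of control (93.7% to 97.2%). Ccnd1, the D-type cyclin best known as a growth factor target, was at 0.234 RPKM and 0.255 RPKM, from at least 93 and 120 reads. Its gene shares 818 bp of genomic span with Oraov1 on the opposite strand (2.87 RPKM and 3.41 RPKM), so some of these reads may belong to that gene. In the control LNA library Ccnd3 made up 79.8% of summed D-type cyclin RPKM, Ccnd2 20.1% and Ccnd1 0.127%. In the Gata6-AS LNA library these shares were 79.7%, 20.2% and 0.145%, so the make-up of the family was nearly identical in both.

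Among the kinase partners, 1 paralogue likewise made up nearly all of the summed level. Cdk4 stood at 61.7 RPKM and 58.5 RPKM, 94.8% of control (93.0% to 96.6%), and Cdk6 at 0.199 RPKM and 0.427 RPKM. Cdk4 thus made up 99.7% of their summed level in the control LNA and 99.3% in the Gata6-AS LNA library. The Cdk6 level was 214% of control (interval 164% to 283%, based on 77 and 196 reads or more), but it lies under the 1 RPKM limit. Gm17590 on the opposite strand, which shares 108 bp with Cdk6, was at 0.268 RPKM and 0.904 RPKM. Cdk4 shares 604 bp with Tspan31 on the opposite strand, which stood at 77.3 RPKM and 64.4 RPKM, above Cdk4 itself. The labels do not say whether reads were counted by strand, so the reads of these overlapping pairs cannot be told apart.

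**Figure D1:**
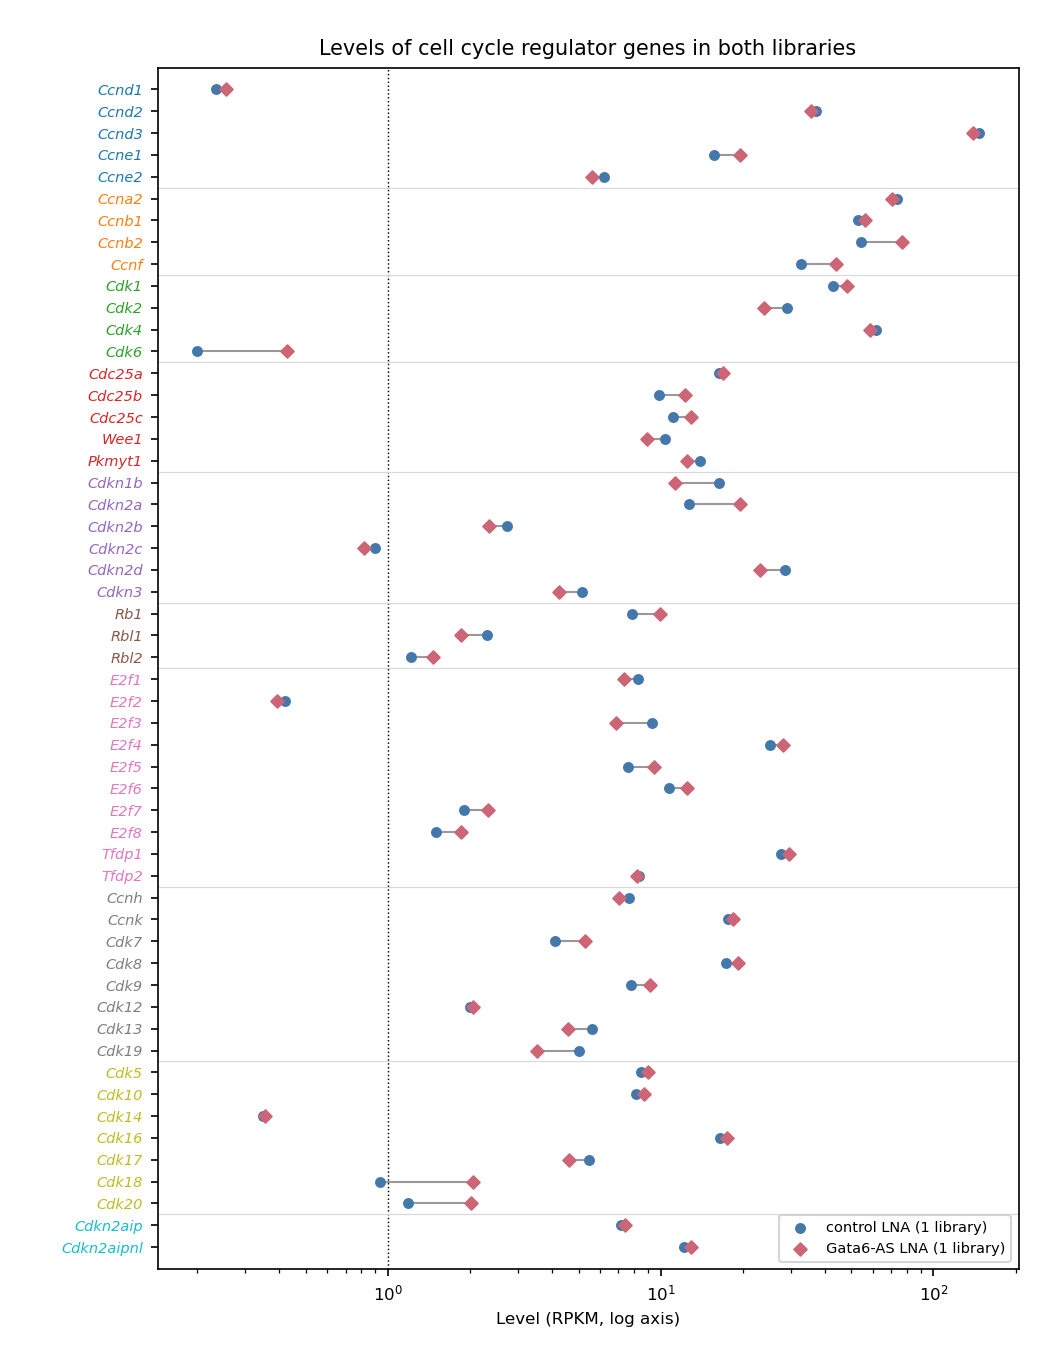
Level of each member in the control LNA library (circles) and in the Gata6-AS LNA library (diamonds), in RPKM on a log axis, with gene names coloured and separated by role and a dotted line at 1 RPKM. Ccnd3 lies highest at 147 and 140 RPKM, whereas Ccnd1, Cdk6, E2f2 and Cdk14 lie below 0.5 RPKM in both libraries; Ccna1, Ccnb3 and Cdk15, at or near 0, are not drawn.

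Among E-type cyclins, which activate Cdk2 at the start of S phase, Ccne1 was the more abundant. It stood at 15.6 RPKM and 19.5 RPKM, 125% of control (118% to 132%). Ccne2 was at 6.22 RPKM and 5.62 RPKM, 90.4% of control (85.3% to 95.7%). Its gene shares 5622 bp of genomic span, introns included, with Ints8 on the opposite strand (4.51 RPKM and 4.66 RPKM). The ratio of Ccne1 to Ccne2 was thus 2.51 in the control LNA and 3.46 in the Gata6-AS LNA library. Their kinase Cdk2 stood at 29.0 RPKM and 24.0 RPKM, 82.7% of control (80.0% to 85.4%). It had the most negative log2(RPKM + 1) difference of the cell cycle kinases, -0.26.

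The A-type, B-type and F cyclin genes differed from each other in their ratio. Ccnb2, a B-type partner of Cdk1 (mm9 chr9:70255496-70269361), stood at 54.4 RPKM in the control LNA and 76.8 RPKM in the Gata6-AS LNA library, 141% of control (137% to 145%), a log2(RPKM + 1) difference of 0.49. Ccnf, an F-box protein that directs substrates to a ubiquitin ligase, stood at 32.8 RPKM and 43.9 RPKM, 134% of control (131% to 137%). Ccnb1, the other main B-type cyclin, was at 52.7 RPKM and 56.3 RPKM, 107% of control (105% to 109%). Cdk1 stood at 42.7 RPKM and 48.2 RPKM, 113% of control (111% to 115%). Ccna2, the partner of Cdk2 and Cdk1 in S phase and G2, stood at 73.5 RPKM and 70.7 RPKM, 96.2% of control (94.7% to 97.8%). B-type cyclins summed to 107 RPKM and 133 RPKM, and Ccnb1 made up 49.2% of this sum in the control LNA and 42.3% in the Gata6-AS LNA library. The germ cell cyclins were at or near 0: Ccna1 was at 0 in both libraries, and Ccnb3 rested on at least 3 reads and 1 read.

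Of the genes that set or remove inhibitory phosphates on CDKs, the phosphatases Cdc25b and Cdc25c lay above control and both Wee kinases below it. Cdc25a was at 16.3 RPKM and 16.9 RPKM, 103% of control, with an interval that includes 100% (99.95% to 107%), and its log2(RPKM + 1) difference of 0.05 became -0.0028 with the median of measured genes set to 0. Cdc25b stood at 9.88 RPKM and 12.3 RPKM, 125% of control (120% to 130%). Cdc25c was at 11.1 RPKM and 12.9 RPKM, 116% of control (106% to 128%), and it shares 645 bp with Gm3550 on the opposite strand, which was higher at 18.9 RPKM and 19.7 RPKM. The phosphatases summed to 37.3 RPKM and 42.1 RPKM, or 113% of control. The kinase Wee1 stood at 10.4 RPKM and 8.89 RPKM, 85.9% of control (80.8% to 91.3%), and the membrane-bound kinase Pkmyt1 at 13.9 RPKM and 12.5 RPKM, 89.9% of control (85.5% to 94.6%). Both kinases summed to 88.2% of control. Each of these differences was under 1.5-fold, and the spread between cultures is not known.

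CDK inhibitor genes lay at both ends of the members' differences: on the log2(RPKM + 1) scale Cdkn2a had the most positive one after Cdk18, and Cdkn1b the most negative one. By plain ratio, and with a pseudocount of 0.1 RPKM (0.72 against 0.62) or each library scaled to 1000000 summed RPKM (0.63 against 0.59), Cdk20 came before Cdkn2a. Cdkn2a (mm9 chr4:88920377-88940557) stood at 12.7 RPKM in the control LNA and 19.5 RPKM in the Gata6-AS LNA library, 154% of control (interval 145% to 164%, based on 1535 and 2808 reads or more), a log2(RPKM + 1) difference of 0.59. This locus encodes the INK4 protein p16 from the downstream start and the p53-stabilising protein ARF from the upstream start, and the single value per gene does not separate them. Cdkn1b, which encodes p27 (mm9 chr6:134870419-134875531), stood at 16.3 RPKM and 11.3 RPKM, 69.0% of control (66.7% to 71.3%), a difference of -0.50. The ratio of Cdkn2a to Cdkn1b levels was 0.776 in the control LNA and 1.73 in the Gata6-AS LNA library, so their order was exchanged. Of measured genes, 3.40% had a more positive difference than Cdkn2a and 3.04% a more negative one than Cdkn1b.

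The values of the other INK4 genes lay below control in the Gata6-AS LNA library. Cdkn2d, which encodes p19-INK4d, was the most abundant at 28.5 RPKM and 23.2 RPKM, 81.4% of control (77.8% to 85.3%). Cdkn2b, the neighbour of Cdkn2a that encodes p15, stood at 2.72 RPKM and 2.35 RPKM, 86.2% of control (74.8% to 99.3%). Cdkn2c, which encodes p18, was below 1 RPKM in both, at 0.899 RPKM and 0.818 RPKM, with an interval that includes 100% (70.8% to 117%). The INK4 sum was 44.8 RPKM and 45.9 RPKM, 102% of control, while the share of Cdkn2a went from 28.3% to 42.6% and that of Cdkn2d from 63.6% to 50.5%. The CDK-associated phosphatase Cdkn3 was at 5.13 RPKM and 4.23 RPKM, 82.5% of control (69.8% to 97.5%). Among inhibitors that the symbol rule left out, Cdkn1a, the p53 target that encodes p21, stood at 31.8 RPKM and 43.5 RPKM, and Cdkn1c was below 0.2 RPKM in both. Cdkn2aip and Cdkn2aipnl, which the symbol rule takes in although they are not CDK inhibitors, stood at 104% (96.5% to 112%) and 106% (101% to 112%) of control.

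**Figure D2:**
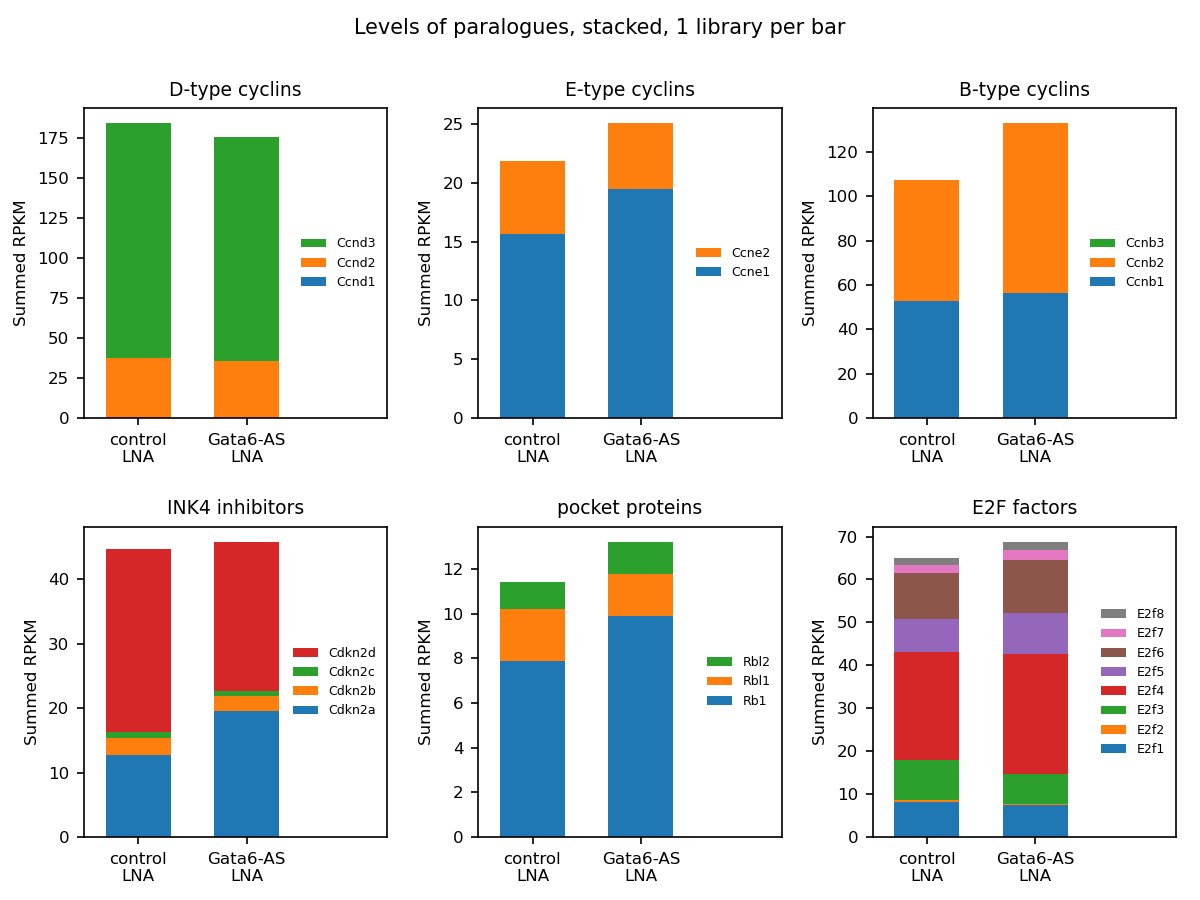
Summed RPKM of D-type cyclins, E-type cyclins, B-type cyclins, INK4 inhibitors, pocket proteins and E2F factors in each library, stacked by paralogue, each panel with its own axis from 0. The D-type bars keep their make-up (Ccnd3 at 79.8% and 79.7%), whereas the share of Cdkn2a in the INK4 bar is 28.3% in the control LNA and 42.6% in the Gata6-AS LNA library.

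Pocket proteins bind and restrain E2F factors. Rb1, the retinoblastoma gene, was the most abundant of them at 7.88 RPKM and 9.91 RPKM, 126% of control (121% to 130%). Rbl1, which encodes p107, stood at 2.32 RPKM and 1.86 RPKM, 80.1% of control (74.3% to 86.3%). Rbl2, which encodes p130, was at 1.22 RPKM and 1.46 RPKM, 120% of control (110% to 131%). The share of Rb1 in their sum was 69.0% and 74.9%. Rb1 overlaps Lpar6 (10.3 RPKM and 8.85 RPKM) and Rcbtb2 on the opposite strand and Gm17233 (8.02 RPKM and 7.27 RPKM) on its own strand, and Rbl2 overlaps Aktip (4.78 RPKM and 6.60 RPKM) on the opposite strand, so these values may include reads of those genes.

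Of the measured E2F factors, the activators E2f1 and E2f3 were lower and the others higher in the Gata6-AS LNA library. Of all measured genes, 58.0% lay above 0. The log2(RPKM + 1) differences of E2f4 (0.15), E2f6 (0.20), E2f7 (0.20) and E2f8 (0.19) lay within the interquartile range of all measured genes, -0.12 to 0.21. Those of E2f1 (-0.15), E2f3 and E2f5 (0.29) lay outside it. E2f1 stood at 8.27 RPKM and 7.34 RPKM, 88.9% of control (84.3% to 93.7%). E2f3 was at 9.27 RPKM and 6.88 RPKM, 74.2% of control (71.1% to 77.4%), a log2(RPKM + 1) difference of -0.38. E2f2, the remaining activator, was below 0.5 RPKM in both libraries, at 93.3% of control (77.2% to 113%). E2f4, which represses with p107 and p130 in resting cells, had the highest E2F level, 25.2 RPKM and 28.0 RPKM, 111% of control (107% to 115%). E2f5, a factor of the same class, stood at 7.61 RPKM and 9.49 RPKM, 125% of control (116% to 134%). The pocket-independent repressor E2f6 was at 10.7 RPKM and 12.5 RPKM, 117% of control (109% to 125%). The atypical repressors E2f7 and E2f8 were low, at 1.90 RPKM and 2.33 RPKM (123%, 115% to 130%) and at 1.498 RPKM and 1.85 RPKM (124%, 113% to 135%). The ratio of E2f4 to E2f1 was 3.05 in the control LNA and 3.82 in the Gata6-AS LNA library. Their DNA-binding partner Tfdp1 stood at 27.7 RPKM and 29.6 RPKM, 107% of control (104% to 110%), and Tfdp2 at 8.35 RPKM and 8.22 RPKM, 98.5% of control (95.3% to 102%). All of these lay within 1.5-fold, and no test of activators against repressors is possible with 1 library per group.

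CDKs and cyclins known for their action on RNA polymerase II and Mediator, some of which also act on the cell cycle, had control levels of up to 17.7 RPKM (Ccnk). Cdk8, a kinase of the Mediator complex, stood at 17.3 RPKM and 19.2 RPKM (111%, 107% to 114%), while its paralogue Cdk19 stood at 5.02 RPKM and 3.52 RPKM (70.0%, 66.4% to 73.9%). The ratio of Cdk8 to Cdk19 was thus 3.45 in the control LNA and 5.46 in the Gata6-AS LNA library. Cdk7, the kinase that activates other CDKs, was at 4.08 RPKM and 5.29 RPKM (130%, 124% to 135%), and its partner Ccnh at 7.66 RPKM and 7.04 RPKM (91.9%, 87.0% to 97.1%). The elongation kinase Cdk9 was at 7.78 RPKM and 9.11 RPKM (117%, 112% to 122%). Ccnk stood at 104% of control (100.1% to 108%), and its kinase partners Cdk12 and Cdk13 at 102% (94.7% to 110%) and 81.9% (78.4% to 85.6%).

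The remaining CDKs have roles outside the core cycle or roles that are less well described. Cdk18 had the largest ratio of the measured members, with 0.933 RPKM in the control LNA and 2.05 RPKM in the Gata6-AS LNA library, 219% of control (interval 192% to 252%, based on 294 and 766 reads or more). Its log2(RPKM + 1) difference was 0.66, and it reached the limit of a mean of 1 RPKM only through the Gata6-AS LNA library. Cdk20 was at 1.18 RPKM and 2.02 RPKM, 171% of control (145% to 201%). Cdk16 stood at 16.5 RPKM and 17.5 RPKM (106%, 103% to 110%) and its relative Cdk17 at 5.46 RPKM and 4.63 RPKM (84.8%, 80.6% to 89.1%). Cdk5, best known in neurons, was at 8.47 RPKM and 8.97 RPKM (106%, 96.9% to 116%), and Cdk10 at 8.13 RPKM and 8.72 RPKM (107%, 99.96% to 115%). Gm20388 covers the whole of Cdk10 on the same strand at 54.0 RPKM and 53.1 RPKM, so the value of Cdk10 is uncertain. Cdk14 was at 0.347 RPKM and 0.355 RPKM, and Cdk15 rested on at least 1 read in the control LNA and 0 reads in the Gata6-AS LNA library.

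**Figure D3:**
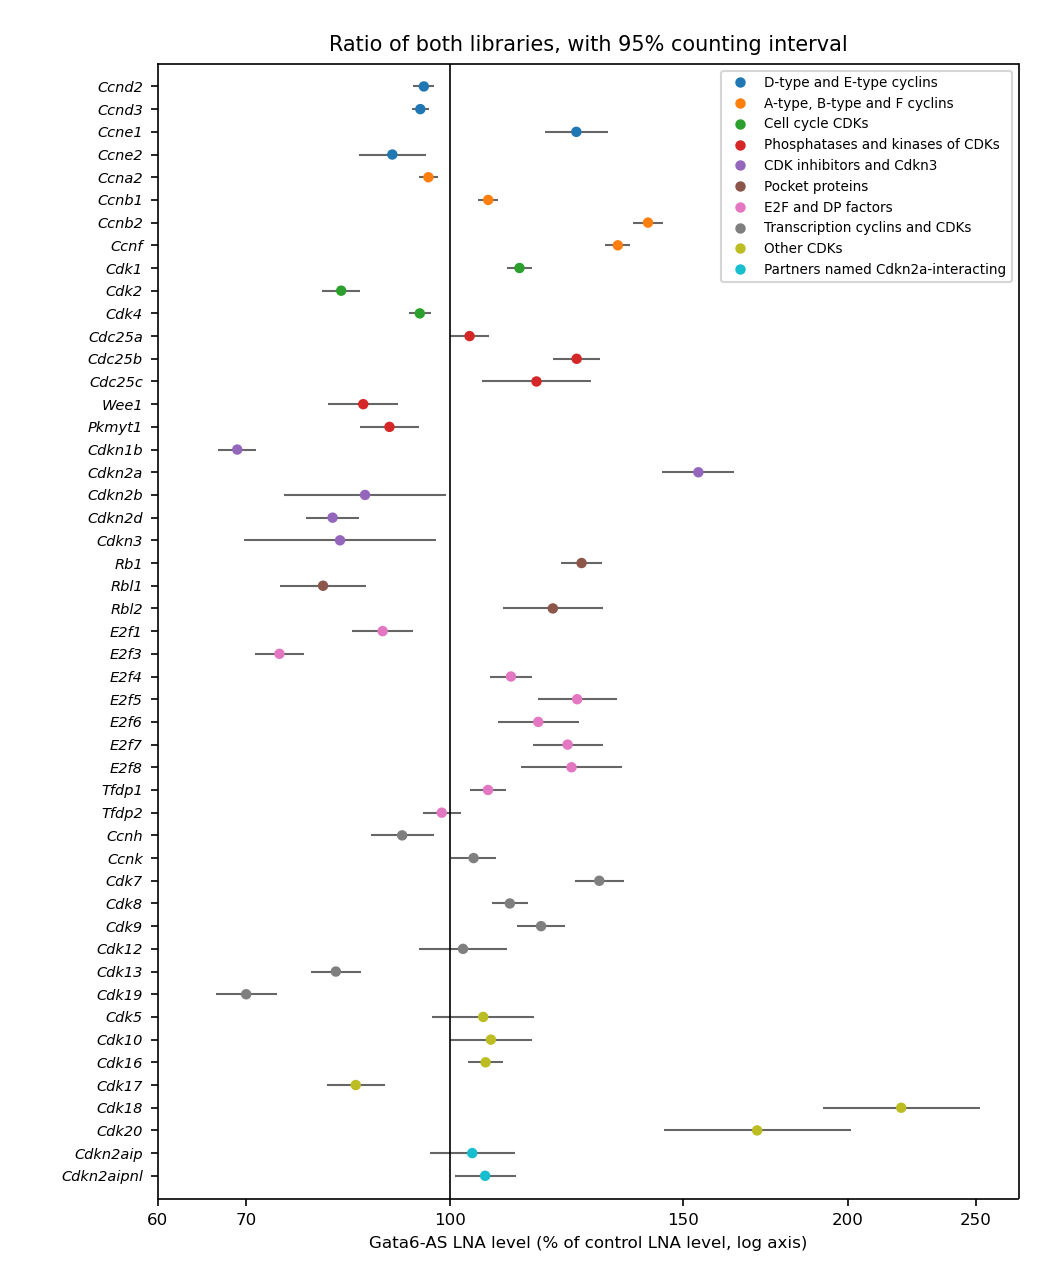
Level of each of the 49 measured members in the Gata6-AS LNA library as a percentage of its level in the control LNA library, on a log axis, with bars for the exact 95% interval of counting error and colours for roles. Cdk18 (219%), Cdk20 (171%), Cdkn2a (154%) and Ccnb2 (141%) lie farthest to the right, and Cdkn1b (69.0%), Cdk19 (70.0%) and E2f3 (74.2%) farthest to the left.

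The counts of members past each fold are given beside those of all measured genes. Of the 57 members 49 were measured, and on the log2(RPKM + 1) scale 0 of them were higher by 2-fold or more and 0 were lower by 2-fold or more, where 0.331% of all 10869 measured genes were higher by that much and 0.451% lower. By 1.5-fold, 2 members were higher (Cdk18 and Cdkn2a) and 0 lower, against 3.42% and 1.95% of all measured genes. Cdkn2a lies at the edge of this limit, with a difference of 0.586 against 0.585 for 1.5-fold. Cdk18, at 0.933 RPKM in the control LNA and 2.05 RPKM in the Gata6-AS LNA library, counts as measured only through the latter. The median difference was 0.07 for members and 0.05 for all measured genes, and 29 members (59.2%) lay above 0, against 58.0% of all measured genes. Within 1.25-fold lay 41 of 49 members (83.7%) and 77.6% of all measured genes, while the median absolute difference was 0.19 for members and 0.17 for all measured genes. The depth makes counting error small: the interval of 43 of 49 members excluded 100%, yet this says nothing of the variation between cultures. In the authors' deposited table, 4 of the 57 members were listed as higher (Cdk18, Cdk6, Ccnb2 and Ccnf), against 4.14% of all 26127 rows. Another 3 were listed as lower (Cdkn1b, Cdk19 and E2f3), against 3.90%. Only 10869 of these rows were measured, against 49 of the 57 members, so these shares do not compare genes of like level. The authors' deposited table gives log2 differences of 1.01 for Cdk18 (p = 0.00421), 0.96 for Cdk6 (p = 0.0308) and -0.56 for Cdkn1b (p = 0.0324). In the authors' deposited table Cdk19 is at -0.58 (p = 0.0420), Ccnb2 at 0.51 (p = 0.0488), Ccnf at 0.49 (p = 0.0603) and E2f3 at -0.48 (p = 0.0637). The authors' deposited table does not list Cdkn2a or Cdk20. Its p-values come from 1 library per group by a test that the labels do not state, on the same libraries, and are no independent check.

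**Figure D4:**
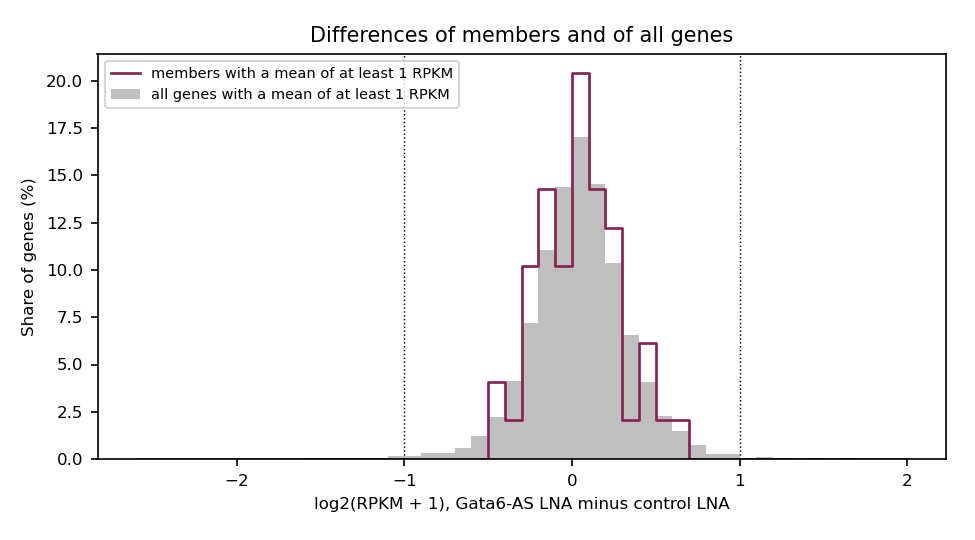
Share of genes in bins of the log2(RPKM + 1) difference, Gata6-AS LNA minus control LNA, for the 10869 measured genes (grey bars) and the 49 measured members (line), with dotted lines at 2-fold in each direction. Both centre near 0, with medians of 0.05 and 0.07, and no member reaches a dotted line.

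Genes that act beside these regulators are described next by 6 related lists, whose counts stand against 3.42% of all measured genes at least 1.5-fold higher, 1.95% lower and 58.0% above 0. Of 28 E2F target genes of DNA replication, all measured, 3 were at least 1.5-fold higher and 0 lower, with a median of 0.08. Uhrf1, a factor of maintenance DNA methylation, stood at 25.9 RPKM and 41.8 RPKM (0.67) and the single-strand binding protein gene Rpa1 at 9.06 RPKM and 14.6 RPKM (0.63), while the polymerase gene Pola1 stood at 3.82 RPKM and 2.44 RPKM (-0.49) and the thymidylate synthase gene Tyms at 9.54 RPKM and 8.19 RPKM (-0.20). The third gene past 1.5-fold was the helicase gene Mcm7 (0.60), whereas Mcm2 to Mcm6 lay between -0.18 and 0.13. Of 23 G2/M genes, 1 was at least 1.5-fold higher and 0 lower, with a median of 0.08. That gene was the mitotic kinase gene Aurkb, at 14.0 RPKM and 22.6 RPKM (0.65), followed by the separase gene Espl1 (0.43), while the kinesin gene Kif11 (-0.47) and the kinetochore gene Ndc80 (-0.39) had the most negative differences. The DREAM and MuvB list, whose complexes bind CHR elements, had a median of 0.04 over 8 genes, from Lin54 (-0.25) and Rbbp4 (-0.07) to Lin52 (0.23) and Lin37 (0.45).

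Factors that degrade cyclins and their inhibitors had a median of 0.14 over 21 genes, with 16 above 0. The APC/C activator Cdc20 stood at 60.1 RPKM and 78.6 RPKM (0.38) and the APC/C subunit Anapc4 at 4.74 RPKM and 6.46 RPKM (0.38). The SCF scaffold Cul1 had the most negative difference and the only one past 1.5-fold, at 33.8 RPKM and 19.6 RPKM (-0.76), followed by the SCF substrate receptor Fbxw7 (-0.17), which recognises cyclin E. Skp2, the SCF receptor for p27, was at 6.82 RPKM and 7.80 RPKM. The list of other CDK inhibitors and p53-linked arrest genes had the highest median of the 6 related lists, 0.39 over 12 of 14 genes, with 2 at least 1.5-fold higher and 1 lower. Gadd45b (11.9 RPKM and 30.5 RPKM, 1.29) and Gadd45g (15.9 RPKM and 32.0 RPKM, 0.97) led it, and the antiproliferative gene Btg1 (62.5 RPKM and 37.4 RPKM, -0.73) and the kinase gene Plk3 (-0.18) lay at its lower end. Genes on the growth factor route to D-type cyclins had a median of -0.11 over 11 of 12 genes, with 1 at least 1.5-fold higher and 2 lower. Mycn (24.8 RPKM and 37.9 RPKM, 0.59) and Mycl1 (0.36) had the most positive differences, and the feedback inhibitors Spry2 (20.4 RPKM and 11.7 RPKM, -0.75) and Spry4 (-0.60) the most negative.

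**Figure D5:**
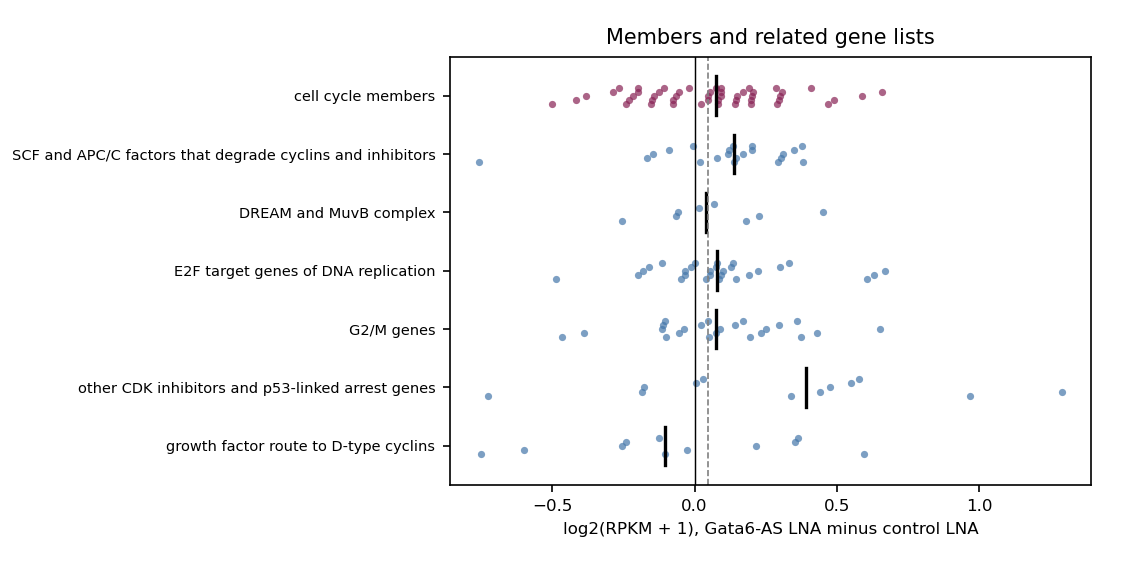
Difference of log2(RPKM + 1), Gata6-AS LNA minus control LNA, for each measured member and each measured gene of 6 related lists, with black bars for medians and a dashed line at the median of all measured genes, 0.05. The members (median 0.07) and the E2F target and G2/M lists (0.08 each) centre near the dashed line, and the arrest gene list (0.39) lies to its right.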

How the data were processed

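Total RNA was made into libraries with an Illumina kit, per the labels' protocols. The authors' deposited table gives RPKM for 26127 rows, per the file headers, and TopHat and mm9 are named in the submitters' processing notes. The authors' second deposited table lists 2099 genes with log2 values per library, the log2 difference between them and a p-value, with p up to 0.0750. Not given in the sources used here are the counting tool, annotation, strand use and aligner version, so reads of overlapping genes may be shared. Another gene overlaps 20 of the 57 members, and not every such pair is named above. Shared lengths are those of genomic spans from gene start to gene end, introns included, so the shared transcript may be shorter.

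Differences are of log2(RPKM + 1), Gata6-AS LNA minus control LNA, which understates the change of low genes, for rows with a mean of at least 1 RPKM. Depth came from genes with a span under 3000 bp, for which RPKM times length was a whole number of steps within 0.01 reads in 813 of 1856 genes (control LNA) and 868 of 1936 (Gata6-AS LNA). For each member, the smallest whole reads that match the RPKM of both libraries at a common length, up to the gene's span, were taken, found for 56 of 57. This procedure was tested on simulated data. Intervals and floors cover counting error only, since PCR copies are not independent molecules. Samples were grouped by title, and with 1 library per group no test was made.

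Every measured member is named with its percentage of control. Values of both libraries were planned for a fixed set and for those past 1.5-fold. They are also given for members outside that plan, such as Ccnf, Cdk7, Cdk8, Cdk19 and Cdk20. In related lists the 2 most extreme genes per direction are named. Mcm2 to Mcm7, Skp2 and overlapping genes were added after their values were seen. The members and lists were chosen with earlier results of these data known. Alternatives changed the pseudocount, scaling, filter and repeated symbols. Python 3.11.15 with pandas 2.3.3, numpy 2.4.6, scipy 1.17.1 and matplotlib 3.10.9 was used.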

Additional observations from a re-analysis of the deposited data

How the results depend on the processing

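No paired analysis was possible because each group has 1 library. The count of members at least 2-fold higher was 0 except with a pseudocount of 0.1 RPKM, which made it 1 (Cdk18, against 0.846% of all genes), and 0 were at least 2-fold or 1.5-fold lower under any alternative run. The count at least 1.5-fold higher was 2 or 3, except that it was 1 with the median of measured genes set to 0 (Cdk18) and 1 at a mean of 5 RPKM (Cdkn2a). The median difference of members was 0.0815 with a pseudocount of 0.1 RPKM, 0.0779 with 0.5 RPKM, 0.0257 with the median of genes set to 0, 0.0530 with each library scaled to 1000000 summed RPKM, 0.0454 without a filter and 0.0645 at a mean of 5 RPKM. No single member changed sign, apart from Cdc25a and Cdk12 with the median of genes set to 0 (0.00 and -0.03). With 1 RPKM added to each level, shares in the control LNA and Gata6-AS LNA libraries were 0.657% and 0.703% for Ccnd1 among D-type cyclins, 98.1% and 97.7% for Cdk4 beside Cdk6, 69.7% and 75.5% for Ccne1 and 98.7% and 98.6% for Ccna2; adding it raises low genes by construction. Depth limits Ccna1, at 0 in both libraries, and Ccnb3 and Cdk15, for which the least reads that fit were 3 or fewer in each library.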
